A study of Mus musculus with 21 samples.

Results

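Small RNAs of the pituitary were sequenced from female C57BL/6J mice in 21 libraries, each from a different mouse collected at proestrus. The virgin cohort was 8 to 12 weeks old and held 3 WT, 4 Zeb1_200H and 4 Zeb1_200M libraries. The breeding trial cohort was 28 to 36 weeks old, after a mating trial that was longer for all Zeb1_200M females and some others, and held 4 WT, 3 Zeb1_200H and 3 Zeb1_200M libraries. Zeb1_200H mice were heterozygous and Zeb1_200M mice homozygous for a knock-in *Zeb1* allele whose sites for miR-200 miRNAs are mutated. In the study most Zeb1_200M females of the breeding trial bore no litter, and the others had fewer litters than WT or Zeb1_200H females. For Zeb1_200M in that cohort, genotype and litter history therefore cannot be told apart. The knock-in lines came from 2 embryonic stem cell clones, both used in each cohort, and the clone behind each library is not given in the labels. These libraries were the small RNA part of a wider study of female fertility. That part asked how loss of miR-200 repression of *Zeb1* changes the miRNAs of this gland, by comparing genotypes in pairs within a cohort.

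A miRNA guides Argonaute proteins to mRNAs, mainly by pairing of its seed near the 5′ end, and represses the mRNAs it finds. Each hairpin precursor gives a guide strand, which Argonaute keeps, and a passenger strand, which is mostly lost. The miR-148 and miR-152 family shares a seed, and its members are known for repressing DNA methyltransferase genes, *Dnmt1* among them. The pituitary joins hormone-secreting endocrine cells with a lobe of neural tissue and is rich in vessels.

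The guide strands miR-148a-3p, miR-148b-3p and miR-152-3p were selected on their shared seed, with their counts and fold changes in these same libraries already known. Their levels and changes are therefore a description. How many of them were called is given beside the share of all miRNAs called, and nothing is supported by those calls. The 3 guide strands were listed in all 6 tables of counts, and all 3 passed the filter on low counts in every comparison.

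Total miRNA counts of the virgin WT libraries were 3816917, 10806313 and 9029142 in replicates 1, 2 and 4. Virgin Zeb1_200H libraries held 10266419, 9698685, 10082073 and 8551806 counts, and virgin Zeb1_200M libraries 10515664, 9508346, 8502878 and 10260660. The virgin WT replicate 1 thus had the lowest depth of its cohort. Breeding trial WT libraries held 154546, 113937, 84093 and 191650 counts. In the same cohort Zeb1_200H replicates 1, 3 and 4 held 110003, 60037 and 131324 counts, and Zeb1_200M replicates 1 to 3 held 87665, 124190 and 122810. Every breeding trial library was therefore far shallower than every virgin one.

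Virgin WT replicate 1 also stood apart in composition. Its 3 most abundant miRNAs took 36.9% of its counts, against 24.5% to 28.1% in the other virgin libraries. Its scaling factor by the trimmed mean of M values (TMM), which adjusts for such differences, was 0.638, against at least 0.942 in the others. Virgin comparisons with WT rest on 3 WT libraries of which this is 1, so changes of the members, their virgin ratios and the counts of listed miRNAs and markers called are also given without it. TMM scaling raises the levels of this library against the others, and for virgin levels the ranges after TMM scaling, chosen after seeing the data, are given beside those in CPM.

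Levels are CPM, counts scaled to a common total of miRNA counts per library. A change between genotypes is a log2 fold change after TMM scaling, with its standard error (SE), from edgeR. A miRNA is called when its p value, adjusted by the method of Benjamini and Hochberg over all miRNAs tested, is under 0.05.

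The mature sequences show what the members share and where they part. They are printed from 5′ to 3′ from RefSeq on GRCm38.p6, where all 6 strands of the family were matched by name, with the seed at bases 2 to 8 in capitals.
miR-148a-3p: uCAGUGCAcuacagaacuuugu
miR-148b-3p: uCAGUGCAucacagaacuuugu
miR-152-3p: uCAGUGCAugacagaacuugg

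Counted from 1 at the 5′ end, miR-148a-3p and miR-148b-3p differ by C9U and U10C over 22 bases. Relative to miR-148a-3p, miR-152-3p carries C9U, U10G and U20G over the 21 bases they share. From miR-148b-3p to miR-152-3p the differences are C10G and U20G. All differences lie outside the seed. The search for relatives covered 1679 mature names of RefSeq, among them 1596 of the 1909 virgin and 1573 of the 1841 breeding trial names. No name outside the family among them had the same bases 2 to 8. In the virgin cohort reads were assigned by their first 19 bases and in the breeding trial cohort by their first 18, and over either length miR-148b-3p and miR-152-3p differ by 1 base while miR-148a-3p differs by 2 from each. No other name searched shared those first bases with a member. Whether mismatches were allowed in the breeding trial cohort is not stated in the labels, and whether reads of miR-148b-3p and miR-152-3p were counted for each other there was not tested.

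Among the names searched, the 7 bases of the family seed also stand at positions 1 to 7 of 7 other miRNAs, 1 base nearer the 5′ end. These were miR-130a-3p, miR-130b-3p, miR-130c, miR-301a-3p, miR-6341, miR-6389 and miR-721. The offset is shown by the first of them, with the same 7 bases in capitals.
miR-130a-3p: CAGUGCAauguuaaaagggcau
miR-148a-3p: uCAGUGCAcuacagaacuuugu

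The passenger strands are less alike, and bases 2 to 8 are again in capitals.
miR-148a-5p: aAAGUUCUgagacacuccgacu
miR-148b-5p: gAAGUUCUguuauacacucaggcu
miR-152-5p: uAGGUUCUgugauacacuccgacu

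miR-148a-5p and miR-148b-5p share bases 2 to 8, and miR-152-5p has its own. The 3 hairpins lie on 3 chromosomes of GRCm38. Mir148a (ENSMUSG00000065505) spans chr6:51269812-51269910 on the minus strand and overlaps no other gene, with the nearest coding gene, *Nfe2l3*, 162760 bases away. Mir148b (ENSMUSG00000065560) spans chr15:103285125-103285221 on the plus strand, in an intron of *Copz1*. Mir152 (ENSMUSG00000065515) spans chr11:96850393-96850465 on the plus strand, in an intron of *Copz2*. *Copz1* and *Copz2* encode the zeta subunits of the COPI vesicle coat and are read from the same strand as the hairpin they hold. Thus 2 of the 3 hairpins sit in paralogous host genes and the third stands alone.

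miR-148a-3p comes from the hairpin without a host gene. In virgin WT libraries it stood at 4730, 5556 and 6321 CPM. Virgin Zeb1_200H libraries held 4977, 5334, 5620 and 4509 CPM, and Zeb1_200M libraries 3925, 5230, 5526 and 4665 CPM. In CPM the lowest WT library lay within the range of both other genotypes, whereas after TMM scaling WT (5898 to 7412) lay above Zeb1_200H (4238 to 5436) and Zeb1_200M (3674 to 5096). Means were 5536 ± 795 (SD, n = 3), 5110 ± 479 (n = 4) and 4836 ± 705 (n = 4) CPM in WT, Zeb1_200H and Zeb1_200M.

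miR-148b-3p was the least abundant member. Virgin WT libraries held 537, 1012 and 1004 CPM. In virgin Zeb1_200H it stood at 930, 987, 902 and 845 CPM, and in virgin Zeb1_200M at 958, 974, 996 and 870 CPM. In CPM WT replicate 1 was far below all other virgin libraries, whereas after TMM scaling it stood at 842, above Zeb1_200H replicate 4 (794) and Zeb1_200M replicate 4 (819), and the groups overlapped. Without it the WT mean in CPM rose from 851 ± 272 (SD, n = 3) to 1008 ± 5.93 (SD, n = 2) CPM.

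miR-152-3p is a member long linked to *Dnmt1*. Its virgin WT levels were 3920, 5774 and 5800 CPM. Virgin Zeb1_200H libraries held 4752, 5197, 4157 and 4933 CPM, and virgin Zeb1_200M libraries 4631, 4615, 5107 and 4410 CPM. In CPM WT replicates 2 and 4 were above every Zeb1_200H and Zeb1_200M library, while WT replicate 1 was below them all. After TMM scaling WT replicate 1 was the highest, and WT (5967 to 6142) lay above Zeb1_200H (4021 to 4760) and Zeb1_200M (4132 to 4710). The WT mean was 5164 ± 1078 (SD, n = 3) CPM with replicate 1 and 5787 ± 18.5 (SD, n = 2) CPM without it.

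Breeding trial WT libraries held 5791, 5161, 5637 and 4696 CPM of miR-148a-3p. Zeb1_200H libraries of that cohort held 6363, 4647 and 5323 CPM, and Zeb1_200M libraries 6080, 5604 and 7027 CPM. The 3 genotypes overlapped, with means of 5321 ± 496 (SD, n = 4), 5444 ± 865 (n = 3) and 6237 ± 724 (n = 3) CPM.

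For miR-148b-3p the breeding trial WT levels were 1288, 1413, 1701 and 1268 CPM. Zeb1_200H libraries stood at 1418, 1416 and 1211 CPM and Zeb1_200M libraries at 1460, 1562 and 1433 CPM. The lowest Zeb1_200M library was just above the highest Zeb1_200H library, and the ranges of both overlapped that of WT. After TMM scaling Zeb1_200H (1128 to 1420) lay below WT (1455 to 1805), and Zeb1_200M (1312 to 1467) overlapped both.

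miR-152-3p in breeding trial WT libraries stood at 9020, 9593, 8633 and 9596 CPM. Its levels were 8772, 7046 and 7516 CPM in Zeb1_200H and 7677, 6152 and 8094 CPM in Zeb1_200M. In CPM all 3 Zeb1_200M libraries and 2 of 3 Zeb1_200H libraries were below the lowest WT library, and after TMM scaling all 3 of each were. Means were 9210 ± 470 (SD, n = 4), 7778 ± 893 (n = 3) and 7308 ± 1022 (n = 3) CPM. In whole pituitaries fewer cells of a type and less RNA per cell cannot be told apart.

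**Figure D1:**
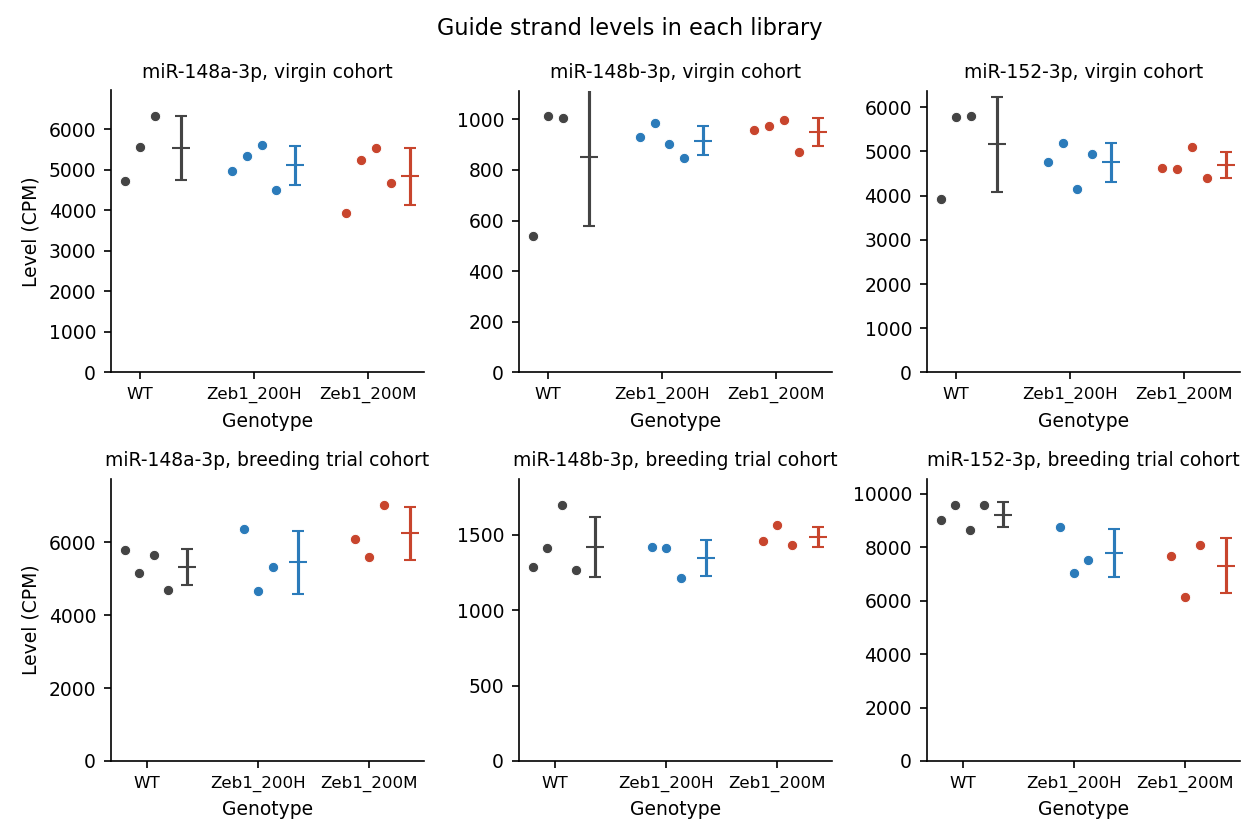
Levels of the 3 guide strands (CPM, from 0) in each library by genotype, virgin cohort above and breeding trial cohort below; points are libraries, and the horizontal and vertical lines give the mean and SD of a group. miR-152-3p of the breeding trial cohort is lower in all 3 Zeb1_200M libraries, at 6152 to 8094 CPM, than in the 4 WT libraries, at 8633 to 9596 CPM; it is lower there with TMM scaling too.

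By mean level in virgin WT the order was miR-148a-3p, miR-152-3p and miR-148b-3p, and the first and second did not differ beyond their spread, with miR-152-3p the higher in replicate 2. In breeding trial WT libraries miR-152-3p came first, then miR-148a-3p, then miR-148b-3p, and no range touched the next. Among all miRNAs of a library, miR-148a-3p ranked 33 to 48 in the virgin cohort and 28 to 37 in the breeding trial cohort. The rank of miR-152-3p was 39 to 44 and 24 to 30, and that of miR-148b-3p 105 to 118 and 68 to 96. Levels were not tested between the cohorts, which differ in age, breeding history, RNA input, adapters, sequencer and the names that reads were matched to.

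Counts behind these levels ranged from 2050 to 62391 per guide strand and library in the virgin cohort and from 85 to 1839 in the breeding trial cohort. The widest Wilson 95% intervals were those of miR-148b-3p, at up to 4.33% and 21.4% of the level on either side. Intervals and floors cover counting error only, since amplified reads are not independent molecules. Precision is thus lowest for miR-148b-3p in the shallow cohort.

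Together the guide strands made up 0.919% (95% Wilson interval 0.909% to 0.928%), 1.23% and 1.31% of the counts in virgin WT replicates 1, 2 and 4. The mean share was 1.16 ± 0.208% (SD, n = 3) in virgin WT, 1.08 ± 0.0520% (n = 4) in Zeb1_200H and 1.05 ± 0.0941% (n = 4) in Zeb1_200M. In the breeding trial cohort it was 1.59 ± 0.0272% (n = 4), 1.46 ± 0.178% (n = 3) and 1.5 ± 0.163% (n = 3). In counts the family's summed share overlapped between the genotypes of either cohort, in the virgin cohort through WT replicate 1. With that library left out the virgin WT share was 1.27 ± 0.0553% (SD, n = 2), and both WT libraries lay above the highest Zeb1_200H (1.15%) and Zeb1_200M (1.16%) library. After TMM scaling, with all libraries kept, virgin WT (1.31% to 1.44%) lay above Zeb1_200H (0.967% to 1.05%) and Zeb1_200M (0.891% to 1.07%). The TMM-scaled breeding trial sum was also higher in every WT library than in every Zeb1_200H or Zeb1_200M library, narrowly so for Zeb1_200H. For single miRNAs, TMM-scaled ranges were apart from WT in 26% (Zeb1_200M) and 25.1% (Zeb1_200H) of virgin miRNAs tested. In the breeding trial cohort these shares were 39.5% and 22.1%. The sum consists mostly of miR-148a-3p and miR-152-3p, whose ranges are given above, and is no separate result.

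Within that sum the mix differed by member. miR-148a-3p made up 48.2 ± 3.24% (SD, n = 3) of family counts in virgin WT, 47.4 ± 3.73% (n = 4) in virgin Zeb1_200H and 46.0 ± 3.22% (n = 4) in virgin Zeb1_200M. In the breeding trial cohort its share was 33.3 ± 2.75% (n = 4), 37.3 ± 1.59% (n = 3) and 41.5 ± 1.35% (n = 3). miR-152-3p took 57.8 ± 3.39%, 53.4 ± 0.385% and 48.5 ± 2.15% of family counts in the same 3 groups. In that cohort the mix shifted from miR-152-3p towards miR-148a-3p.

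miR-148b-3p made up 7.23 ± 1.23% (SD, n = 3) of family counts in virgin WT, 8.49 ± 0.214% (n = 4) in virgin Zeb1_200H and 9.10 ± 0.674% (n = 4) in virgin Zeb1_200M. The WT range, 5.85% to 8.20%, lay below those of Zeb1_200H (8.22% to 8.73%) and Zeb1_200M (8.57% to 10.1%), narrowly so for Zeb1_200H. In the breeding trial cohort its shares of 8.88 ± 1.22% (n = 4), 9.33 ± 1.28% (n = 3) and 9.99 ± 1.57% (n = 3) overlapped. Without WT replicate 1, at 5.85%, the WT libraries held 8.20% and 7.65%. Virgin shares of miR-148a-3p and miR-152-3p overlapped between genotypes, so that only the least abundant member had WT apart there. For single miRNAs, virgin CPM ranges were apart from WT in 35.1% (Zeb1_200M) and 33.2% (Zeb1_200H) of those tested. How often such a share lies apart in other families was not computed, and nothing is read from it.

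The first pair of genotypes, virgin Zeb1_200M and WT, compares homozygous and WT mice before breeding. Of 678 miRNAs tested edgeR called 44 (6.49%), and 1 of the 3 guide strands, miR-152-3p, was among them. CPM ranges of the groups were apart for 238 of the 678 (35.1%) and for 0 of the 3 guide strands. After TMM scaling they were apart for 176 of the 678 (26%) and for 2 guide strands, miR-148a-3p and miR-152-3p. The log2 fold change was −0.60 ± 0.16 (SE) for miR-148a-3p, −0.19 ± 0.13 for miR-148b-3p and −0.52 ± 0.12 for miR-152-3p. Among the miRNAs tested, 23.6% changed more than miR-148a-3p and 31.3% more than miR-152-3p in absolute size, so these changes were not extreme.

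These virgin values depend on scaling and on single libraries. With library totals in place of TMM, a setting chosen after seeing the data, the median of all 678 miRNAs moved by 0.34. The guide strands then stood at −0.19, 0.16 and −0.14, so that miR-148b-3p changed direction, and relative to the shifted median at −0.53, −0.18 and −0.48. Without WT replicate 1 the values were −0.46, −0.25 and −0.46, and miR-148a-3p and miR-152-3p were called, beside 168 of 703 miRNAs (23.9%). Without any other single library of the pair (WT replicate 2 or 4, or Zeb1_200M replicate 1, 2, 3 or 4) the call of miR-152-3p was lost, with log2 fold changes from −0.55 to −0.46 over all libraries left out. That call was also lost with library totals, where miR-152-3p stood at −0.14, without a filter on low counts and with replicate numbers as a block. Without a filter miR-152-3p was still lower in Zeb1_200M, by the value given under the processing. DESeq2 called 2 guide strands, beside 87 of 654 miRNAs (13.3%), and limma voom with sample quality weights 3, beside 184 of 678 (27.1%).

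Virgin Zeb1_200H and WT compare mice with a single mutant allele and mice with none, and share the WT libraries of the first pair. edgeR called 34 of 672 miRNAs (5.06%) and 0 of the 3 guide strands, of which 2 had an unadjusted p under 0.05, as did 131 of all 672. DESeq2 called 2 of them, beside 66 of 768 miRNAs (8.59%), and limma voom 3, beside 152 of 672 (22.6%). CPM ranges were apart for 223 of 672 miRNAs (33.2%) and for 0 guide strands, and TMM-scaled ranges for 169 (25.1%) and for 2, miR-148a-3p and miR-152-3p. Log2 fold changes were −0.46 ± 0.15 (SE) for miR-148a-3p, −0.19 ± 0.13 for miR-148b-3p and −0.44 ± 0.12 for miR-152-3p. Library totals moved the median of all by 0.29 and gave −0.12, 0.11 and −0.12, with miR-148b-3p again changing direction, or −0.41, −0.19 and −0.41 relative to that median. All 3 guide strands were called without WT replicate 1, at −0.34, −0.27 and −0.41, beside 151 of 699 miRNAs (21.6%).

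Virgin Zeb1_200M and Zeb1_200H, a pair without WT libraries, ask whether the second mutant allele adds a change. edgeR called 15 of 675 miRNAs (2.22%) and 0 guide strands, with 0 at an unadjusted p under 0.05 and 0 by DESeq2 (1.59% of all) or limma voom (2.22%). CPM ranges were apart for 53 of 675 miRNAs (7.85%) and for 0 guide strands, and TMM-scaled ranges for 38 (5.63%) and for 0. Log2 fold changes were −0.14 ± 0.10 (SE) for miR-148a-3p, −0.00 ± 0.07 for miR-148b-3p, which became 0.05 with library totals, and −0.07 ± 0.07 for miR-152-3p. The widest of the 3 changes was that of miR-148a-3p. Over the libraries left out, they ranged from −0.19 to −0.05 (miR-148a-3p), −0.04 to 0.03 (miR-148b-3p) and −0.12 to −0.04 (miR-152-3p).

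After the breeding trial, Zeb1_200M and WT were compared over fewer miRNAs, and in this pair genotype and litter history cannot be told apart. edgeR called 99 of 276 miRNAs (35.9%) and 1 of the 3 guide strands, miR-152-3p. CPM ranges were apart for 117 of 276 miRNAs (42.4%) and for 1 guide strand, again miR-152-3p, and TMM-scaled ranges for 109 (39.5%) and for miR-152-3p. These shares are near those of all miRNAs, and nothing is read from them. Log2 fold changes were −0.00 ± 0.10 (SE) for miR-148a-3p, −0.14 ± 0.13 for miR-148b-3p and −0.57 ± 0.10 for miR-152-3p. Library totals moved the median of all by 0.23, to 0.24, and gave 0.23, 0.09 and −0.33, so that miR-148a-3p and miR-148b-3p changed direction and miR-152-3p kept its own. Relative to that median the values were −0.00, −0.15 and −0.57. The change of miR-152-3p ranged from −0.62 to −0.46 over the libraries left out. That of miR-148a-3p ranged from −0.07 to 0.06 there, with its direction changing, and that of miR-148b-3p from −0.19 to −0.06.

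Zeb1_200H and WT after the breeding trial share their WT libraries with that pair. Here edgeR called 32 of 267 miRNAs (12%) and 1 guide strand, miR-152-3p, and CPM ranges were apart for 79 of 267 miRNAs (29.6%) and for 0 guide strands. TMM-scaled ranges were apart for 59 (22.1%) and for 2 guide strands, miR-148b-3p and miR-152-3p. Log2 fold changes were −0.13 ± 0.13 (SE) for miR-148a-3p, −0.24 ± 0.15 for miR-148b-3p and −0.41 ± 0.11 for miR-152-3p. With library totals, which moved the median of all by 0.17, to 0.18, they were 0.04, −0.06 and −0.24, so that miR-148a-3p changed direction, and −0.14, −0.24 and −0.42 relative to that median. The call of miR-152-3p was lost with library totals and without Zeb1_200H replicate 4, where its log2 fold change was −0.38. With replicate numbers as a block it kept its call, at −0.41, beside 47 of 267 miRNAs (17.6%). Over the libraries left out, log2 fold changes ranged from −0.25 to −0.05 (miR-148a-3p), −0.28 to −0.15 (miR-148b-3p) and −0.50 to −0.36 (miR-152-3p).

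Zeb1_200M and Zeb1_200H after the breeding trial again ask what the second allele adds. edgeR called 3 of 274 miRNAs (1.09%) and 0 guide strands, with 0 at an unadjusted p under 0.05 and 0 by DESeq2 (0.449% of all) or limma voom (1.82%). CPM ranges were apart for 51 of 274 miRNAs (18.6%) and for 1 guide strand, miR-148b-3p. Log2 fold changes were 0.15 ± 0.13 (SE) for miR-148a-3p, 0.11 ± 0.16 for miR-148b-3p and −0.14 ± 0.13 for miR-152-3p. None of these exceeded its SE by much, and TMM-scaled ranges were apart for 47 of 274 miRNAs (17.2%) and for 0 guide strands, with miR-148b-3p at 1312 to 1467 against 1128 to 1420. Over the libraries left out, the log2 fold changes ranged from 0.05 to 0.29 (miR-148a-3p), 0.03 to 0.17 (miR-148b-3p) and −0.21 to −0.02 (miR-152-3p).

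**Figure D2:**
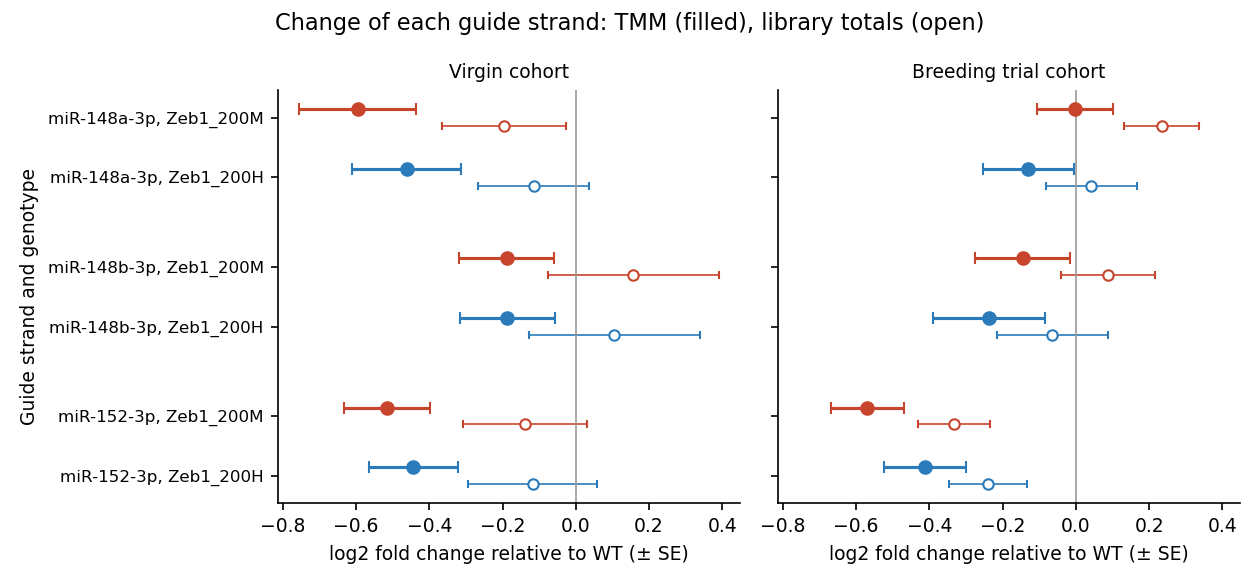
Log2 fold change of each guide strand relative to WT (± SE) in Zeb1_200M and Zeb1_200H for each cohort, after TMM scaling (filled points) and with library totals (open points). miR-152-3p is below 0 in all 4 comparisons under both scalings, from −0.57 to −0.41 with TMM and from −0.33 to −0.12 with library totals, while miR-148b-3p changes sign between scalings in 3 of them and miR-148a-3p in both of the breeding trial cohort.

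Whether a genotype changed the family differently in the cohorts was asked of the difference between the cohorts' log2 fold changes, breeding trial minus virgin. For Zeb1_200M edgeR called 0 of 485 miRNAs (0%), with 27 at an unadjusted p under 0.05 and 0 called by DESeq2. For Zeb1_200H it called 0 of 489 (0%), with 23 at an unadjusted p under 0.05 and 0 by DESeq2. In Zeb1_200M the difference was 0.51 ± 0.21 (SE) for miR-148a-3p, −0.05 ± 0.18 for miR-148b-3p and −0.14 ± 0.17 for miR-152-3p. In Zeb1_200H it was 0.34 ± 0.22, −0.05 ± 0.20 and 0.03 ± 0.19 for the same miRNAs. Thus miR-148a-3p had the widest difference, and no guide strand was called in either test under any setting run. Library totals moved the median of the Zeb1_200H test by −0.15, to −0.13, and gave 0.13, −0.19 and −0.14 there, so that miR-152-3p changed direction, or 0.26, −0.06 and −0.01 relative to that median. Without virgin WT replicate 1 the Zeb1_200M differences were 0.47, 0.11 and −0.10, with miR-148b-3p changing direction, and those of Zeb1_200H 0.21, 0.02 and −0.01, with miR-148b-3p and miR-152-3p changing direction. Over all libraries left out, the Zeb1_200M difference reached from 0.45 to 0.71 for miR-148a-3p, from −0.10 to 0.11 for miR-148b-3p and from −0.13 to 0.10 for miR-152-3p, so that only the first kept its direction.

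The ratio of 2 guide strands within a library is untouched by scaling. It was computed for the 3 pairs of members and was chosen as a measure after the levels had been seen, among 7 measures of the family, so it carries no test. Reads of miR-148a-3p per read of miR-152-3p were 0.642, 0.538, 0.653 and 0.489 in the breeding trial WT libraries. They were 0.725, 0.660 and 0.708 in Zeb1_200H and 0.792, 0.911 and 0.868 in Zeb1_200M. Every Zeb1_200M library lay above every Zeb1_200H library, and these above every WT library. The lowest Zeb1_200H library and the highest WT library were separated by less than counting error: miR-148a-3p made up 35.5% of family counts in the first (95% Wilson interval 32.2% to 38.9%) and 35.3% in the second (32.8% to 37.9%).

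Mean ratios of the breeding trial cohort were 0.581 ± 0.0799 (SD, n = 4) in WT, 0.698 ± 0.0341 (n = 3) in Zeb1_200H and 0.857 ± 0.0603 (n = 3) in Zeb1_200M. On the log2 scale Zeb1_200H was above WT by 0.27 ± 0.11 (SE) and Zeb1_200M by 0.57 ± 0.12. Between all pairs of the more abundant miRNAs of this cohort, ranges of the ratio were apart in 39.4% of 33153 pairs for Zeb1_200M and WT, in 25.7% for Zeb1_200H and WT and in 18.2% for Zeb1_200M and Zeb1_200H. All 3 ranges were apart with Zeb1_200H between the others in 4.65% of those pairs, and in 1 of the 3 family pairs. The shift of miR-148a-3p against miR-152-3p was therefore 1 of 1540 such pairs.

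Virgin ratios of miR-148a-3p to miR-152-3p did not separate the genotypes. They were 1.09 ± 0.122 (SD, n = 3) in WT, with a range from 0.962 to 1.21. Zeb1_200H and Zeb1_200M stood at 1.09 ± 0.187 (n = 4) and 1.03 ± 0.126 (n = 4). On the log2 scale the differences from WT were −0.01 ± 0.15 (SE) for Zeb1_200H and −0.08 ± 0.13 for Zeb1_200M. Without WT replicate 1, a setting chosen after seeing the data, they were 0.07 ± 0.15 and −0.00 ± 0.13, with Zeb1_200H changing direction.

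Reads of miR-152-3p per read of miR-148b-3p in virgin libraries averaged 6.26 ± 0.901 (SD, n = 3) in WT, 5.20 ± 0.506 (n = 4) in Zeb1_200H and 4.94 ± 0.187 (n = 4) in Zeb1_200M. The Zeb1_200M range, 4.74 to 5.13, lay below the WT range, 5.70 to 7.30, and the Zeb1_200H range reached from 4.61 to 5.84. In the breeding trial cohort the means were 6.61 ± 1.07 (n = 4), 5.79 ± 0.705 (n = 3) and 4.95 ± 0.896 (n = 3), with overlapping ranges. Log2 differences from WT in Zeb1_200M were −0.33 ± 0.12 (SE) in the virgin and −0.42 ± 0.20 in the breeding trial cohort. Without virgin WT replicate 1, whose ratio of 7.30 was the highest, the virgin difference was −0.22 ± 0.03 and the WT range 5.70 to 5.78. Without that library virgin Zeb1_200H differed from WT by −0.15 ± 0.07 in place of −0.26 ± 0.14. This ratio was lower in Zeb1_200M in both cohorts, apart from WT in the virgin cohort alone.

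The ratio of miR-148a-3p to miR-148b-3p overlapped between genotypes in both cohorts, with virgin means of 6.86, 5.58 and 5.09 and breeding trial means of 3.79, 4.06 and 4.22 in WT, Zeb1_200H and Zeb1_200M. Its virgin log2 differences from WT, −0.27 ± 0.21 (SE) for Zeb1_200H and −0.41 ± 0.23 for Zeb1_200M, became −0.08 ± 0.11 and −0.22 ± 0.14 without WT replicate 1. Of the 3 family pairs, 1 thus had Zeb1_200M and WT apart in the virgin cohort, where 37.8% of 38226 pairs of miRNAs did. No family pair had virgin Zeb1_200H and WT apart (38.8% of pairs), virgin Zeb1_200M and Zeb1_200H apart (10.4%), or all 3 apart in order (5.83%).

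**Figure D3:**
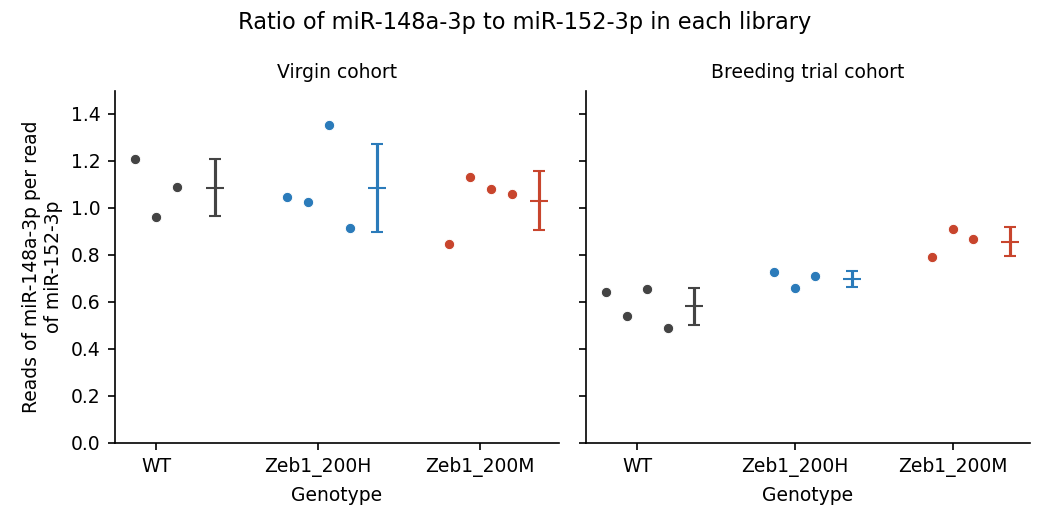
Reads of miR-148a-3p per read of miR-152-3p in each library by genotype and cohort, a ratio that does not depend on scaling; points are libraries, and the horizontal and vertical lines give the mean and SD of a group. In the breeding trial cohort the 3 genotypes do not overlap (WT 0.489 to 0.653, Zeb1_200H 0.660 to 0.725, Zeb1_200M 0.792 to 0.911), and in the virgin cohort they do.

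The passenger strands were not used to choose the family. In virgin libraries miR-148a-5p had 25 to 123 reads (6.55 to 13.3 CPM), miR-148b-5p 60 to 155 (10.3 to 15.7 CPM) and miR-152-5p 19 to 215 (4.98 to 23.8 CPM). Summed over the 3 virgin WT libraries there were 504 reads of miR-148a-3p per read of its passenger strand. The same ratio was 64.1 for the miR-148b hairpin and 298 for the miR-152 hairpin. The strand kept was thus the 3p strand at each hairpin, least one-sidedly at miR-148b.

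None of the 3 passenger strands was called by edgeR in a virgin comparison. For Zeb1_200M and WT the log2 fold change was −0.57 ± 0.24 (SE; adjusted p = 0.211) for miR-148a-5p, with 0 of 4 Zeb1_200M libraries below the lowest WT library in CPM and 3 of 4 after TMM scaling. For miR-148b-5p it was −0.58 ± 0.24 (adjusted p = 0.194), with 3 of 4 below in CPM and 4 of 4 after TMM scaling, and for miR-152-5p −0.23 ± 0.31 (adjusted p = 0.696), with 0 of 4 below on either scale. In this pair 2 of the 3 had an unadjusted p under 0.05, DESeq2 called 0 and limma voom 2, miR-148a-5p and miR-152-5p, beside 27.1% of all miRNAs. Without WT replicate 1 miR-152-5p was called, at −0.49 (adjusted p = 0.0407; 23.9% of all called), and without WT replicate 4 it changed direction, to 0.09. The change of miR-148b-5p shrank to −0.29 without WT replicate 1. Adjusted p values of miR-152-5p with 1 library left out ranged from 0.0407 to 0.903. With library totals miR-152-5p also changed direction, to 0.06, or −0.28 relative to the median of all.

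For virgin Zeb1_200H and WT the log2 fold changes were −0.43 ± 0.21 (SE; adjusted p = 0.287), −0.54 ± 0.25 (adjusted p = 0.279) and −0.16 ± 0.31 (adjusted p = 0.798) for miR-148a-5p, miR-148b-5p and miR-152-5p. In that order 0, 2 and 0 of 4 Zeb1_200H libraries were below the lowest WT library in CPM, and 3, 3 and 0 after TMM scaling. None of the 3 had an unadjusted p under 0.05, DESeq2 called 0, and limma voom called 1, miR-148a-5p, beside 22.6% of all miRNAs. miR-152-5p changed direction without WT replicate 4, to 0.14, and with library totals, to 0.07, or −0.22 relative to the median of all. Without WT replicate 1 miR-148b-5p stood at −0.27 and miR-152-5p at −0.45, neither of them called. Between virgin Zeb1_200M and Zeb1_200H the passenger strands moved by −0.15 ± 0.20, −0.04 ± 0.14 and −0.07 ± 0.12 (SE; adjusted p = 0.899, 0.966 and 0.933), with 1, 0 and 0 of 4 Zeb1_200M libraries below the lowest Zeb1_200H library in CPM and 2, 0 and 0 after TMM scaling. There 0 had an unadjusted p under 0.05 and DESeq2 and limma voom called 0, and miR-148b-5p changed direction with library totals, to 0.02, and without Zeb1_200H replicate 1, to 0.06.

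Breeding trial libraries held 0 to 4 reads of miR-148a-5p and of miR-148b-5p and 0 to 6 of miR-152-5p, too few to pass the filter, and no fold change was tested there. Where no read was found, 3 reads would have been 35.7 CPM in WT replicate 3 (miR-148a-5p), 49.97 CPM in Zeb1_200H replicate 3 (miR-148a-5p and miR-148b-5p) and 24.2 CPM in Zeb1_200M replicate 2 (miR-152-5p). Whether the passenger strands differed there by as much as in the virgin cohort was not tested.

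Other miRNAs known to target DNA methyltransferases were taken as a list of 10 names outside the family. In the virgin cohort all 10 matched, as 12 entries, and edgeR called 0 of the 12 for Zeb1_200M and WT, with 2 at an unadjusted p under 0.05, 2 by DESeq2 (13.3% of all) and 2 by limma voom (27.1%). For Zeb1_200H and WT it called 0 of the 12 too, with 2 at an unadjusted p under 0.05, 2 by DESeq2 (8.59%) and 4 by limma voom (22.6%). Median log2 fold changes of the list were 0.19 and 0.21, against −0.00 and 0.01 for all miRNAs tested. Without WT replicate 1 the calls were 2 (23.9% of all) and 4 (21.6%).

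In the breeding trial cohort edgeR called 5 of the 10, all higher in Zeb1_200M than in WT, a share of calls to be read beside the 35.9% of all miRNAs in that pair. DESeq2 called 2 of the 10 (22.5% of all) and limma voom 5 (38.8%). The list's median was 0.20, against 0.00 for all. miR-140-5p, at 1095 to 1208 CPM in Zeb1_200M and 408 to 523 CPM in WT, rose by 1.00 ± 0.15 (SE; adjusted p = 1.04e-05), with 3 of 3 Zeb1_200M libraries above every WT library in CPM and after TMM scaling. It kept its call in every setting run.

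The other 4 rose less, and each lost its call when some single library was left out. In CPM 3 of 3 Zeb1_200M libraries were above every WT library for each of them, whereas after TMM scaling this held for 3 of 3 for miR-143-3p and miR-101b-3p, 2 of 3 for miR-126a-3p and 0 of 3 for miR-29b-3p. miR-143-3p rose by 0.39 ± 0.12 (SE; adjusted p = 0.0169), and its call was lost without Zeb1_200M replicate 1, at 0.37. miR-29b-3p rose by 0.33 ± 0.11 (adjusted p = 0.0245), and its call was lost without WT replicate 1 (0.32), WT replicate 3 (0.25) or Zeb1_200M replicate 1 (0.29). miR-126a-3p rose by 0.28 ± 0.10 (adjusted p = 0.0298), losing its call without WT replicate 1 (0.28), Zeb1_200M replicate 1 (0.25) or Zeb1_200M replicate 2 (0.23). miR-101b-3p rose by 0.31 ± 0.12 (adjusted p = 0.0368), losing its call without WT replicate 1 (0.32), 2 (0.30) or 3 (0.30) or without Zeb1_200M replicate 1 (0.28) or 2 (0.32). Over the libraries left out, the adjusted p of these 4 reached at most 0.157.

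For breeding trial Zeb1_200H and WT, 1 of the 10 was called beside 12% of all miRNAs, miR-140-5p, at 883 to 1043 CPM against 408 to 523 CPM in WT. It rose by 0.83 ± 0.17 (SE; adjusted p = 0.000824), with 3 of 3 libraries above every WT library, and the list's median was 0.06. Between Zeb1_200M and Zeb1_200H 0 were called in either cohort, with 0 at an unadjusted p under 0.05 in the virgin and 2 in the breeding trial cohort, and 0 by DESeq2 or limma voom. Abundant members that were not called were miR-29a-3p, at 37171 ± 4607 (SD, n = 3) CPM in virgin WT and 59123 ± 2613 (n = 4) in breeding trial WT, and miR-29c-3p, at 18610 ± 5028 and 26034 ± 2802 CPM. In none of the 6 comparisons was a miRNA of this list called lower by edgeR or DESeq2. A second list held 8 names known to target cholesterol and lipid genes. Of 8 virgin entries edgeR called 0 against WT. Without WT replicate 1 it called 1 for Zeb1_200M (23.9% of all) and 2 for Zeb1_200H (21.6%). After the breeding trial it called 2 of 5 higher in Zeb1_200M than in WT, miR-33-5p and miR-223-3p, beside 35.9% of all. The list's median was 0.38 there. For Zeb1_200H and WT edgeR called 0 of 4, and between the mutant genotypes 0 in either cohort.

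Markers of cell types in the gland are given as summed levels in each library, and their part in the changes of the family was not tested. Calls among markers are to be read beside the share of all miRNAs called by the same rule, for breeding trial comparisons with WT 35.9% (Zeb1_200M) and 12% (Zeb1_200H) by edgeR. For virgin Zeb1_200M and Zeb1_200H against WT the shares were 6.49% and 5.06% by edgeR, 13.3% and 8.59% by DESeq2, 27.1% and 22.6% by limma voom, and 23.9% and 21.6% by edgeR without WT replicate 1. Sums apart between genotypes are to be read beside the share of single miRNAs apart from WT. In CPM it was 35.1% and 33.2% (virgin) and 42.4% and 29.6% (breeding trial) for Zeb1_200M and Zeb1_200H. After TMM scaling it was 26% and 25.1%, and 39.5% and 22.1%. The endocrine markers were miR-7a-5p, miR-7b-5p and miR-375-3p, with miR-7a-5p the most abundant over all libraries of each cohort and none at 0. Their summed level was 368951, 269425 and 273145 CPM in virgin WT, 264186, 253180, 277444 and 264282 in Zeb1_200H and 231804, 256743, 235527 and 279905 in Zeb1_200M. In breeding trial libraries it was 308200, 288001, 314366 and 290890 CPM in WT, 289256, 270783 and 263402 in Zeb1_200H and 253157, 260271 and 246486 in Zeb1_200M. In CPM the sum was highest in virgin WT replicate 1, and in the breeding trial cohort lower in every Zeb1_200M library than in every WT library. After TMM scaling virgin WT (281003 to 578141, and 281003 to 285999 without replicate 1) lay above Zeb1_200H (231885 to 268349) and Zeb1_200M (216965 to 263481). TMM-scaled breeding trial WT (296580 to 349779) also lay above Zeb1_200H (245393 to 289535) and Zeb1_200M (225653 to 244414). Median log2 fold changes of the virgin list were −0.79 in Zeb1_200M and −0.64 in Zeb1_200H, and −0.20 and −0.07 without WT replicate 1. In virgin comparisons with WT edgeR called 0 of 3, with 2 (Zeb1_200M) and 1 (Zeb1_200H) at an unadjusted p under 0.05, 1 and 1 by DESeq2 and 1 and 1 by limma voom. Leaving out WT replicate 1 gave 1 and 1 called. After the breeding trial 2 of 3 were called lower in Zeb1_200M, miR-375-3p and miR-7a-5p, and 1 of 3 lower in Zeb1_200H, miR-375-3p. With library totals miR-7a-5p was not called, at −0.22. In breeding trial WT alone miR-375-3p, at a mean of 127759 CPM, was above miR-7a-5p, at 122138 CPM.

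Neural markers were 7 names, led over all libraries of each cohort by miR-124-3p, with none at 0. They summed to 2114, 4985 and 5413 CPM in virgin WT, 8092, 8437, 8366 and 8808 in Zeb1_200H and 12300, 10812, 12013 and 9145 in Zeb1_200M. In breeding trial libraries the sum was 6898, 6161, 6207 and 7128 CPM in WT, 11754, 9428 and 11658 in Zeb1_200H and 16563, 16370 and 16188 in Zeb1_200M. WT was lowest and Zeb1_200M highest in both cohorts, with no overlap in CPM or after TMM scaling. In breeding trial WT miR-137-3p (2761 CPM) and miR-218-5p (1302 CPM) were above miR-124-3p (1217 CPM). miR-124-3p stood at 3564 to 4653 CPM in breeding trial Zeb1_200H, against 825 to 1477 CPM in WT. In that pair miR-218-5p stood lower, at −0.33 ± 0.15 (SE) and not called, and the other tested markers higher. Of 8 virgin entries 2 were called higher in each comparison, both of them forms of miR-124-3p, beside 6.49% (Zeb1_200M and WT), 5.06% (Zeb1_200H and WT) and 2.22% (Zeb1_200M and Zeb1_200H) of all miRNAs. Without WT replicate 1 the count against WT was 5 for Zeb1_200M (23.9% of all) and 6 for Zeb1_200H (21.6%), and limma voom called 5 and 5 (27.1% and 22.6%). Of 6 tested after the breeding trial, 4 were called higher in Zeb1_200M than in WT (miR-124-3p, miR-137-3p, miR-338-3p and miR-9-5p), 1 in Zeb1_200H than in WT and 1 in Zeb1_200M than in Zeb1_200H, each time miR-124-3p. In the last of these pairs 1.09% of all miRNAs were called. miR-338-3p lost its call without WT replicate 2, at 0.37, or Zeb1_200M replicate 1 or 2, at 0.45 and 0.46. Virgin miR-124-3p lost its call between Zeb1_200M and Zeb1_200H without Zeb1_200H replicate 1 or 2 in both forms, and without Zeb1_200M replicate 1 in the first, with values from 0.48 to 0.70 over the libraries left out.

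Blood cell markers were 8 names led by miR-451a, of which 6 matched as written in the virgin and 4 in the breeding trial cohort. miR-486a/b-5p in the virgin and miR-142-3p and miR-142-5p in the breeding trial cohort, listed under another form of the name, were added after seeing the data, and no entry was at 0. Virgin sums were 6065, 8816 and 10990 CPM in WT, 9699, 20452, 12564 and 11410 in Zeb1_200H and 11647, 10797, 10961 and 12693 in Zeb1_200M. Breeding trial sums were 6581, 9233, 6326 and 6914 CPM in WT, 7827, 9627 and 8513 in Zeb1_200H and 8840, 9324 and 12646 in Zeb1_200M. The genotypes overlapped in both cohorts, and virgin Zeb1_200H replicate 2 was the highest. edgeR called 0 of 8 entries in virgin Zeb1_200M and Zeb1_200H against WT, with 2 and 2 at an unadjusted p under 0.05, 1 and 1 by DESeq2 and 2 and 2 by limma voom. With WT replicate 1 left out the counts were 1 and 2. It called 3 of 6 higher in breeding trial Zeb1_200M than in WT, miR-142-3p, miR-223-3p and miR-144-3p, the last not without Zeb1_200M replicate 3, at 0.40. miR-142-3p rose by 0.94 ± 0.19 (SE; adjusted p = 0.000540) and kept its call in every setting run.

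Endothelial markers were miR-126a-3p, the most abundant, and miR-126a-5p. Virgin sums were 6081, 6158 and 5281 CPM in WT, 6972, 7501, 6704 and 6740 in Zeb1_200H and 7555, 7288, 7003 and 7371 in Zeb1_200M. Breeding trial sums were 6341, 6504, 6279 and 6590 CPM in WT, 9327, 8212 and 8871 in Zeb1_200H and 9707, 9824 and 8745 in Zeb1_200M. In CPM every library of either mutant genotype was above every WT library of its cohort. With library totals the median log2 fold change of all miRNAs was itself above 0 in these comparisons. It was 0.34 (Zeb1_200M) and 0.29 (Zeb1_200H) in the virgin cohort and 0.24 and 0.18 in the breeding trial cohort. After TMM scaling the virgin WT sum was 5433 to 9529, against 6334 to 6870 in Zeb1_200H and 6458 to 7072 in Zeb1_200M, with median log2 fold changes of −0.24 and −0.22. This lower direction rested on WT replicate 1: with it left out the WT sum was 5433 to 6536 and the medians were 0.15 and 0.21. TMM-scaled breeding trial sums were 6665 to 7732 in WT, 7718 to 9336 in Zeb1_200H and 8006 to 9225 in Zeb1_200M, so that Zeb1_200H overlapped WT. edgeR called 0 of 3 virgin entries in either comparison with WT, with 0 at an unadjusted p under 0.05 and 0 by DESeq2 or limma voom, and 2 of 2 higher in breeding trial Zeb1_200M than in WT, of which miR-126a-3p lost its call without the libraries named above. For breeding trial Zeb1_200H and WT it called 0 of 2, with 1 at an unadjusted p under 0.05, 0 by DESeq2 (3.62% of all) and 1 by limma voom (13.9%), and no endothelial marker was at 0.

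Markers of fibroblasts and mural cells matched 4 of 5 names as written, led over all libraries of each cohort by miR-145a-5p. miR-199a/b-3p was added in the virgin cohort in the same way, and none was at 0. In virgin WT miR-143-3p averaged 1198 CPM, against 645, 1198 and 1131 CPM of miR-145a-5p in replicates 1, 2 and 4. Virgin sums were 2111, 2786 and 2842 CPM in WT, 4253, 3774, 2658 and 4057 in Zeb1_200H and 5049, 4784, 2647 and 4558 in Zeb1_200M. Breeding trial sums were 3902, 4195, 4269 and 4070 CPM in WT, 4936, 4730 and 5498 in Zeb1_200H and 6536, 5918 and 5985 in Zeb1_200M. Replicate 3 of each virgin mutant genotype was low. The breeding trial genotypes were apart in CPM, while after TMM scaling Zeb1_200H (4446 to 5122) overlapped WT (4320 to 4775). edgeR called 1 of 5 higher in virgin Zeb1_200M than in WT (2 without WT replicate 1), miR-145a-5p, which kept its call only without WT replicate 1 among the libraries left out, with values from 0.52 to 0.63. For virgin Zeb1_200H and WT it called 0 of 5, with 1 at an unadjusted p under 0.05, 0 by DESeq2, 1 by limma voom and 1 without WT replicate 1. After the breeding trial it called 2 of 4 higher in Zeb1_200M than in WT, miR-143-3p, already named, and miR-145a-5p, whose call was lost without WT replicate 1 (0.29) or Zeb1_200M replicate 1 (0.26) or 2 (0.35).

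Which miRNAs followed each member most closely from library to library was measured by the root mean square difference of log2 profiles, each centred on its mean, over all libraries of a cohort. Candidates had a mean of at least 100 CPM, and all points share their libraries. Over 11 virgin libraries and 276 candidates the nearest to miR-148a-3p were miR-425-5p (0.12), miR-376c-3p (0.14) and miR-376b-5p (0.15), against a median of 0.39. Nearest to miR-148b-3p were miR-1839-3p (0.08), miR-376b-3p (0.08) and miR-191-5p (0.09), against a median of 0.30. Nearest to miR-152-3p were miR-434-5p (0.07), miR-376c-3p (0.08) and let-7i-3p (0.12), against a median of 0.34. From miR-148a-3p, miR-152-3p was number 6 (0.18) and miR-148b-3p number 46 (0.25). Among the 103 candidates with a mean of at least 1000 CPM, miR-152-3p was number 3 from miR-148a-3p.

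Over 10 breeding trial libraries and 257 candidates the nearest to miR-148a-3p were miR-369-3p (0.13), miR-409-3p (0.14) and miR-21a-5p (0.14), against a median of 0.32. For miR-148b-3p they were miR-17-5p (0.11), miR-30a-5p (0.14) and miR-15b-5p (0.14), against 0.32. For miR-152-3p they were miR-151-5p (0.15), miR-335-5p (0.16) and miR-210-3p (0.17), against 0.39. From miR-152-3p, miR-148b-3p was number 36 and miR-148a-3p number 37, both at 0.27, and none of the 3 nearest miRNAs of a member was shared between the cohorts over all libraries. Without virgin WT replicate 1, miR-151-5p was number 2 from miR-152-3p in the virgin cohort and so was shared.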

How the data were processed

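Small RNA was sequenced from 21 pituitaries of female mice, 11 in the virgin and 10 in the breeding trial cohort. The deposited counts are raw read counts per miRNA, which the authors made by trimming reads with cutadapt, keeping those with every base at a quality of at least 30, removing spike-ins and size standards, and matching the first 19 (virgin, no mismatch) or 18 (breeding trial) bases to known miRNAs. The virgin names came from TargetScanMouse (1909 names, 1388 with a count) and the breeding trial names from miRBase (1841 names, 743 with a count), with 1816 in both. Whether mismatches were allowed in the breeding trial cohort is not stated in the labels. Each library's counts appear in 2 tables, and all 21 repeated columns were identical. The authors' scaled values and comparisons, made with DESeq2, were not used here.

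Read depth per library was 3816917 to 10806313 counts in the virgin and 60037 to 191650 in the breeding trial cohort. Genotypes were compared in pairs within each cohort with the quasi-likelihood F test of edgeR 4.0.16 in R 4.3.3, after TMM scaling and its filter on low counts (minimum count 10, minimum total 15). A miRNA was called at a Benjamini-Hochberg adjusted p under 0.05. The difference between cohorts was an interaction term over shared names. SEs were computed from the fold change and the F statistic, and 95% intervals of levels are Wilson intervals. Where no read was found, 3 reads give the floor. Profiles used a prior count of 0.5 and a mean of at least 100 CPM. Sequences and positions came from RefSeq and the gene annotation of GRCm38. The fits were tested on simulated data.

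Alternatives were DESeq2 1.42.0, its size factors in edgeR, no filter, TMM factors computed with all miR-200 relatives left out, 1 fit of 3 genotypes, limma 3.58.1 voom with sample quality weights, replicate numbers as a block, and leaving out each library in turn. Library totals in place of TMM, TMM-scaled ranges and marker sums, and leaving libraries out of the ratios of members, the family share and marker sums, were chosen after seeing the data.

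Whether equal replicate numbers mark pairs is not stated in the labels. For breeding trial Zeb1_200H and WT, 7 forms of the correlation between equal numbers were looked at. The first did not meet the rule, set at r over 0.1 in every pair (lowest 0.0684), and in all 2 did not and 5 did, with the lowest r of those 5 at 0.100 and the highest r at 0.324. The blocked fit had been seen by then. It called 47 miRNAs against 32, with 31 shared, and miR-152-3p kept its call at −0.41.

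The members and lists were chosen with earlier results of these data known. The text names the 3 guide strands, their 3 passenger strands and the miRNAs of nearest profiles. It names each member of the DNA methyltransferase list called in at least 1 comparison and otherwise the 2 with the highest WT level. Of the cholesterol list it names the members called by edgeR with all libraries kept. Markers are named beside their sums, after their values were seen. Names not matched as written were miR-486a-5p, miR-486b-5p and miR-199a-3p in both cohorts and, in the breeding trial cohort, miR-142a-3p and miR-142a-5p. Entries under another form, miR-486a/b-5p and miR-199a/b-3p (virgin) and miR-142-3p and miR-142-5p (breeding trial), were added to the marker lists after seeing the data. The mRNA targets were not analysed here.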

Additional observations from a re-analysis of the deposited data

How the results depend on the processing

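Over the alternatives, 348 values of guide strands moved by less than the spread between replicates and 30 by more. Of the passenger strands 127 values kept direction and side of the threshold, 4 gained a call and 7 changed direction. Of the listed miRNAs, from both target lists and the markers, 356 were kept and 50 lost their call, and the 21 mean ratios moved by less than their spread.

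The number called for virgin Zeb1_200M and WT was 44 and became 87 with DESeq2, 90 with 1 fit of 3 genotypes, 184 with limma voom and 20 with replicate numbers as a block. It reached from 25 to 168 over the libraries left out: 168 without WT replicate 1, and 27, 25, 27 and 29 without Zeb1_200M replicates 1 to 4. For virgin Zeb1_200H and WT it was 34 and became 66, 67, 152 and 18 in the same order. Without WT replicate 1 it was 151, and without Zeb1_200H replicates 1 to 4 it was 21, 21, 22 and 22. For virgin Zeb1_200M and Zeb1_200H 1 fit gave 5 in place of 15. For breeding trial Zeb1_200H and WT library totals gave 69 in place of 32. For breeding trial Zeb1_200M and Zeb1_200H limma voom and the block each gave 5 in place of 3, and leaving out libraries gave 3 to 5, with 5 without Zeb1_200M replicate 2. The tests between cohorts called 5 (Zeb1_200M) and 2 (Zeb1_200H) without a filter. In each case the cause was not tested.

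Library totals raised the share of calls that were higher, to 39 of 58 from 18 of 44 for virgin Zeb1_200M and WT, to 84 of 110 from 56 of 99 for breeding trial Zeb1_200M and WT, and to 54 of 69 from 13 of 32 for breeding trial Zeb1_200H and WT. The block lowered it in virgin comparisons with WT, to 4 of 20 and 3 of 18.

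With library totals miR-148a-3p, miR-148b-3p and miR-152-3p stood at −0.19, 0.16 and −0.14 in virgin Zeb1_200M and WT and at −0.12, 0.11 and −0.12 in virgin Zeb1_200H and WT. In breeding trial Zeb1_200M and WT they stood at 0.23, 0.088 and −0.33. In breeding trial Zeb1_200H and WT miR-148b-3p stood at −0.064 and miR-152-3p at −0.24. The difference between cohorts in Zeb1_200H became 0.13, −0.19 and −0.14. These scaled values carry the shift of the median of all miRNAs. Without a filter miR-152-3p was −0.44 in virgin Zeb1_200M and WT, and the cause was not tested.

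Over the libraries left out, the difference between cohorts in Zeb1_200M reached from 0.45 to 0.71 for miR-148a-3p, from −0.10 to 0.11 for miR-148b-3p and from −0.13 to 0.10 for miR-152-3p. In Zeb1_200H it reached from 0.13 to 0.44 for miR-148a-3p and from −0.13 to 0.080 for miR-152-3p.

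miR-152-5p changed direction in virgin Zeb1_200M and WT with library totals (0.059) and over the libraries left out (−0.49 to 0.089). It did so in virgin Zeb1_200H and WT with library totals (0.070), the block (0.037) and over the libraries left out (−0.45 to 0.14). miR-148b-5p did so in virgin Zeb1_200M and Zeb1_200H with library totals (0.015) and over the libraries left out (−0.12 to 0.059). The cause was not tested.

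Of the 3 nearest virgin profiles, 1 was kept for each member without WT replicate 1, and 0 for miR-148a-3p and 1 for miR-152-3p at a mean of at least 1000 CPM, where miR-152-3p was number 3 from miR-148a-3p. TMM-scaled WT means were 6604 CPM (virgin) and 5845 CPM (breeding trial) for miR-148a-3p and 10135 CPM (breeding trial) for miR-152-3p.

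Depth limits the passenger strands of the breeding trial cohort, at 0 to 6 reads per library, and leaves miR-148b-3p there with intervals of up to 21.4% on either side.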
